A study of Mus musculus with 6 samples.

Results

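The genes described here are the numbered zinc finger genes of the mouse, those with a symbol of the form Zfp and a number, whose RNA was detected in thymic lymphocytes. The array carried 603 probes for 331 such genes. A gene was kept when at least 1 of its probes was detected, at a detection p under 0.01, on at least 3 of the 6 arrays, and it was then represented by the detected probe with the highest mean signal. This left 175 genes, 52.9% of the 331, among 8200 named genes that met the same rule on the array as a whole. Of the 175 genes, 152 were detected on all 6 arrays, 3 on exactly 3, and none in 1 genotype alone. Of the 156 genes left out, 130 were detected on no array and 26 on 1 or 2. The members were thus chosen by their detection p and signal, and the difference between the genotypes did not enter the rule. Just inside the rule lay Zfp128, Zfp827 and Zfp658, whose third-lowest detection p was 0.00855, 0.00962 and 0.00962. Just outside lay Zfp189, Zfp599 and Zfp583, at 0.0139, 0.0139 and 0.016.

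RNA came from thymic lymphocytes of 6 mice, 1 Illumina mouse bead array each. The mice were 8 to 12 weeks old and of the C57/bl6-129sv strain. The 3 knockout mice were CD4-Cre/Kap1flox, in which Cre under CD4 control removes KAP1 (gene symbol Trim28) in the T lineage, and the 3 littermate controls were wt/Kap1flox. Knockout replicates are numbered 1 to 3 and control replicates 4 to 6. The zygosity of the floxed allele, and whether a control carried Cre, are not stated in the labels. CD4-Cre is known to become active in double-positive thymocytes, so earlier thymocytes and other cells of the thymus keep the gene. No sort is named in the labels.

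Many numbered Zfp genes encode C2H2 zinc finger proteins, which read DNA through a row of fingers. The largest mouse family among them carries a KRAB box, which recruits KAP1, and KAP1 in turn brings SETDB1 and heterochromatin proteins that mark the site with trimethylated histone H3 lysine 9. KRAB zinc finger genes arose by tandem duplication, stand in clusters, and are themselves known targets of KAP1 at their own zinc finger exons. Other genes with the same kind of symbol encode proteins of a different sort, such as the RNA-binding Zfp36 family. From a list drawn up by hand, 89 of the 175 genes were taken to encode a KRAB box and 78 to lack one, and 8 were not assigned.

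Signals are given as log2 of the background-corrected signal plus 16, normalised between arrays. This scale understates differences of dim probes, and every difference is knockout minus control. Trim28 itself, measured by 1 probe, had a log2 signal of 10.83, 11.01 and 10.23 in knockout replicates 1 to 3. The control replicates 4 to 6 had 12.39, 12.25 and 12.59. The knockout arrays all lay below the control arrays, with a log2 difference of -1.72 ± 0.26 (SE, n = 3 per group), and an adjusted p of 0.23 in limma. Residual Trim28 signal from cells that kept the gene and from partial loss in each cell cannot be told apart. Of 10 T cell and thymocyte markers on the array, 9 were detected on at least 3 arrays and 1, Cd8a, on none. The summed signal of that list was 107573 to 122137 in the knockout and 111465 to 111903 in the controls. All 6 detected markers of macrophages and dendritic cells were higher in the knockout, at summed signals of 7238 to 13026 against 3936 to 5347, with Adgre1 and Itgax not detected. Both detected B cell markers were also higher, at 744 to 1263 against 534 to 771, with Ms4a1 and Pax5 not detected. All 5 neutrophil markers and the 1 detected erythroid marker were lower, at summed signals of 785 to 2939 against 1517 to 4136 and 194 to 985 against 260.0 to 1166, with Alas2 not detected. The 2 detected markers of thymic stroma were higher, at 718 to 1226 against 747 to 770, with Foxn1, Krt5 and Col1a1 not detected. None of these markers passed an adjusted p of 0.05 in limma, and their part in the results on the Zfp genes was not tested.

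No detected Zfp gene passed an adjusted p of 0.05 in limma, in either direction. Among all 8200 genes, 0.0366% passed as higher and 0.0% as lower, and 0.0273% of all tested probes passed. Of the 175 genes, 77 were higher in the knockout and 98 lower, and their median log2 difference was -0.02, with quartiles of -0.19 and 0.13. The median of all tested genes was -0.01, with 47.9% higher against 44.0% of the Zfp genes. Differences ranged from -0.64 for Zfp940 to 1.25 for Zfp760, and the median standard error of a member was 0.25. At an unadjusted p under 0.05 in limma there were 3 members, or 1.71%, against 3.5% of all genes. These were Zfp760 and Zfp661, higher in the knockout (1.14%, against 2.22% of all genes), and Zfp940, lower (0.571%, against 1.28%). With neighbouring animal numbers of the 2 genotypes as a replicate block, 7 members, or 4.0%, were under that p, against 5.18% of all genes, and the smallest adjusted p of a member in limma was 0.491, for Zfp760. In 15 members, or 8.57%, the 3 knockout arrays all lay on one side of the 3 control arrays, against 8.0% of all genes. Of the 15, 9 were higher in the knockout (5.14%, against 4.61% of all genes) and 6 lower (3.43%, against 3.39%). Differences of at least 0.5 either way were found in 11 members, or 6.29%, against 8.21% of all genes. The members thus stood close to or below the share of all genes on each of these counts. In a preparation of whole lymphocytes, fewer cells of a type and less RNA per cell cannot be told apart.

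**Figure D1:**
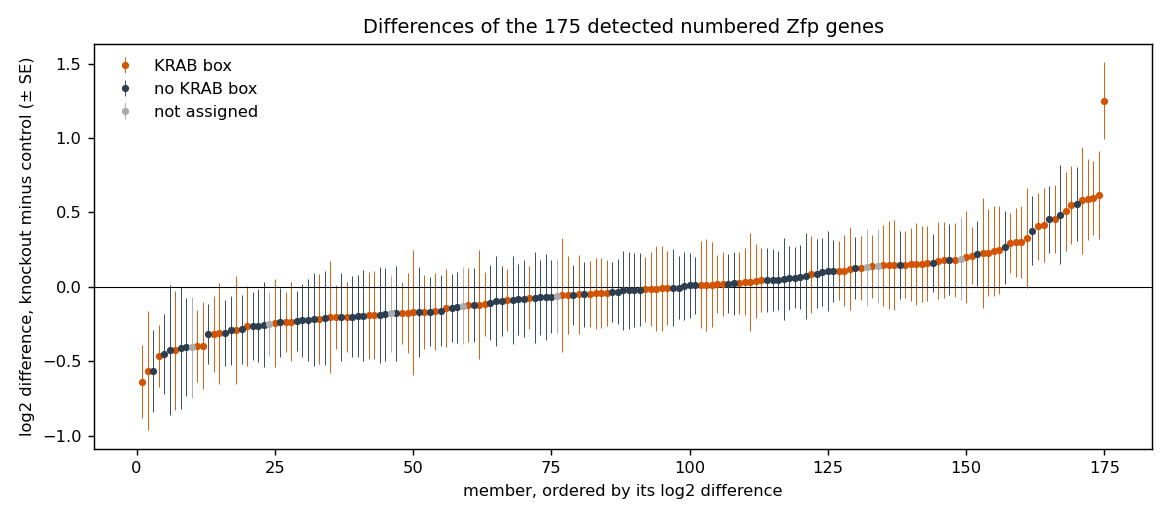
Log2 difference between knockout and control of each of the 175 detected numbered Zfp genes, ordered from lowest to highest along the horizontal axis. Points are the limma estimates with bars of 1 SE (n = 3 per group), coloured by the presence of a KRAB box. The quartiles lie at -0.19 and 0.13, and Zfp760, at 1.25, stands above the rest.

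Among the genes with a KRAB box, 47 of 89 were higher in the knockout (52.8%), with a median log2 difference of 0.02. Among those without one, 27 of 78 were higher (34.6%), with a median of -0.07. Differences of at least 0.5 either way were found in 9 of the 89 KRAB genes, or 10.1%, and in 2 of the 78 others, or 2.56%, against 8.21% of all genes. The split between the classes was not tested, and its share of higher genes depended on the arrays used. Without knockout replicate 2, 64.0% of the KRAB genes and 62.8% of the genes without a KRAB box were higher, with medians of 0.08 and 0.06. Of 66 tested zinc finger genes with other names, such as the Zbtb, Klf and Ikzf families, 23 were higher, with a median of -0.06. That was 34.8%, against 47.9% of all genes. With knockout replicate 2 left out, 40 of the 66 were higher (60.6%, against 53.2% of all genes), and the median was 0.02. Of 19 tested genes for KAP1 and proteins it works with, Trim28 among them, none was higher, with a median of -0.15, but without knockout replicate 2 9 of the 19 were higher and the median was -0.07. No gene of these other lists passed an adjusted p of 0.05 in limma.

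Zfp760, a KRAB zinc finger gene on chromosome 17 (Entrez 240034, probe ILMN_2877253), had the largest difference of the 175. Its log2 signal was 8.55, 7.83 and 8.30 in knockout replicates 1 to 3, and 7.20, 7.05 and 6.68 in control replicates 4 to 6. Every knockout array lay above every control array, and knockout replicate 2 was the closest to the controls. The group means were 8.22 ± 0.36 and 6.98 ± 0.27 (SD, n = 3 each), a 2.38-fold difference. On the log2 scale this was 1.25 ± 0.26 (SE), with a 95% interval of 0.66 to 1.84, an unadjusted p of 0.0011 and an adjusted p of 0.673 in limma. The value lay between 1.09 and 1.45 when any single array was left out. Another Zfp760 probe, detected on only 1 array, read 5.84, 5.38 and 5.14 in the knockout and 4.68, 4.54 and 4.64 in the controls. Its knockout arrays also all lay above its control arrays, with a log2 difference of 0.83, though it was too dim to be tested.

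Zfp820 and Zfp943, both KRAB zinc finger genes, follow Zfp760 on chromosome 17 with at most 4 annotated genes between neighbours. Zfp820 read 6.87, 5.93 and 6.95 in the knockout, against 6.04, 6.01 and 5.85 in the controls. Knockout replicates 1 and 3 were above all controls, while replicate 2 lay among them. Its log2 difference was 0.62 ± 0.29 (SE, n = 3 per group), with an adjusted p of 0.998 in limma, and it was 0.94 without knockout replicate 2. Zfp943 read 10.71, 10.21 and 10.56 against 10.14, 10.35 and 9.73, again with replicate 2 among the controls, a log2 difference of 0.42 ± 0.25. Further along stands Zfp758, at 8.41, 7.82 and 8.34 against 7.93, 8.00 and 7.75, with a difference of 0.30 ± 0.23. On the other side of Zfp760 lie Zfp160, with a difference of 0.30 ± 0.24, and Zfp97. Zfp97 read 8.28, 7.93 and 8.18 in the knockout and 7.89, 7.71 and 7.02 in the controls. Its groups did not overlap, control replicate 6 stood well below the rest, and the log2 difference was 0.59 ± 0.27, with an adjusted p of 0.998 in limma.

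The promoters of 4 of these neighbours are shown because they stand in 1 stretch of the chromosome and had differences of the same sign, though 12 annotated genes separate Zfp758 from Zfp943. Zfp160 and Zfp97, further off on the other side of Zfp760, were also higher, and their windows are not shown. Each window runs from 250 bases before to 50 bases after the annotated start, from RefSeq on build GRCm38.p6, and is written 5′ to 3′ on the gene's strand. They are chr17:21707491-21707790 on the plus strand for Zfp760, chr17:21845710-21846009 on the minus strand for Zfp820, chr17:21962309-21962608 on the plus strand for Zfp943 and chr17:22361213-22361512 on the plus strand for Zfp758. Capitals mark the ETS core CCGGAA, read on either strand (TTCCGG on the other), and the E-box CACGTG.
Zfp760: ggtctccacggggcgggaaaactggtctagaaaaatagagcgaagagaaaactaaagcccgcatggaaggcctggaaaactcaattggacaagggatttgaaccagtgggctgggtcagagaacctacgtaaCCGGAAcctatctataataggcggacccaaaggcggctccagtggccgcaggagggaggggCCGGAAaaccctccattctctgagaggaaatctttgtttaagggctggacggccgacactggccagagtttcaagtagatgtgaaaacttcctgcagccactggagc
Zfp820: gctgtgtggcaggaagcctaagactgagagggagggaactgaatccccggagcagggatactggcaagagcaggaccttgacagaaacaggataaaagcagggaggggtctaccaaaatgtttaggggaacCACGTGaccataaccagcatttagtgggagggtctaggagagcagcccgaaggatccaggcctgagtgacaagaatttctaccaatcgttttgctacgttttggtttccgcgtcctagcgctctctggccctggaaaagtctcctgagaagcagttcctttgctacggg
Zfp943: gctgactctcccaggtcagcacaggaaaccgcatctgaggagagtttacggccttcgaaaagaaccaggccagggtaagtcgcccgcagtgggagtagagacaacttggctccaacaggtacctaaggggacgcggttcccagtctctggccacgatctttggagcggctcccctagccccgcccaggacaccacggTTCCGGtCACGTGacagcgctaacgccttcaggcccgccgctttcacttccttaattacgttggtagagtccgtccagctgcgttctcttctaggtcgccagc
Zfp758: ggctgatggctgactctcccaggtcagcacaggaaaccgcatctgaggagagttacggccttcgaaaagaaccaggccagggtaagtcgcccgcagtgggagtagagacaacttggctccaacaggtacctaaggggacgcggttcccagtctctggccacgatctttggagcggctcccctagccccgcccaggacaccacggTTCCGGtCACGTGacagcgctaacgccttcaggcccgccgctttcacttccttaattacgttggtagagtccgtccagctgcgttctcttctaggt
The Zfp760 window holds 2 ETS cores, Zfp943 and Zfp758 hold 1 each, and none is found in the Zfp820 window. An E-box is present once in Zfp820, Zfp943 and Zfp758 and is not in the Zfp760 window. Counted on both strands, the windows of Zfp160 and Zfp97 hold 1 and 4 ETS cores, and neither has an E-box. The Zfp943 and Zfp758 windows were the same over 292 aligned bases, with 0 mismatches and 1 gap base, and in both the ETS core and the E-box lie side by side. The windows of Zfp760 and Zfp820 shared no such likeness with them. Probe sequences were not used here, so whether a probe tells such close relatives apart was not tested.

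Promoter windows were found for 147 of the 175 genes, 180 windows in all. The ETS core CCGGAA was present, on either strand, in 35.0% of them against 14.9% of 32851 mouse promoters of the same length. Those 32851 were not limited to genes detected in these samples. A comparison with promoters of detected genes only was not made. It was present in 43.5% of the windows of KRAB genes and 25.0% of those of genes without a KRAB box. CCAAT was in 47.2% against 37.4%. The TATA sequence TATAAA was in 7.78% against 13.6%, and the E-box CACGTG in 5.56% against 7.15%. The Zfp windows also held more CpG dinucleotides, a median of 17 against 7, and CCGGAA itself contains a CpG. These matches describe letters in the windows and were not related to the expression differences.

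Chromosome 17 carried 17 of the 175 genes, of which 11 were higher in the knockout, with a median log2 difference of 0.23 against -0.03 for all 451 tested genes of the chromosome. Without knockout replicate 2 the median of the 17 was 0.12. The 6 genes from Zfp97 to Zfp758 were all higher, with a median of 0.50. The remaining 11 genes had a median of -0.05, with 5 higher. The stretch was chosen after its values were seen, so the contrast between the 6 and the 11 is a description with no test. It spans 151 annotated genes, 75 of them protein-coding, and only 9 were tested. The 3 tested genes that are not numbered Zfp genes had differences near 0, at -0.01 for the pseudogene Oaz1-ps, 0.10 for Spaca6 and 0.14 for Ppp2r1a, which encodes a scaffold subunit of protein phosphatase 2A. The Zfp genes there are not all adjacent, with 95 annotated genes between Zfp97 and Zfp160, 32 between Zfp160 and Zfp760, and 12 between Zfp943 and Zfp758. Outside the stretch, the KRAB gene Zfp472 read 9.70, 9.72 and 9.42 against 9.35, 9.36 and 9.25. Its groups did not overlap, at a small difference of 0.29 ± 0.20. On another Zfp472 probe they did overlap, at 0.22 ± 0.20. Zfp523, also outside the stretch, was lower without overlap, at -0.23 ± 0.20, and on another Zfp523 probe the groups overlapped, at -0.34 ± 0.27.

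**Figure D2:**
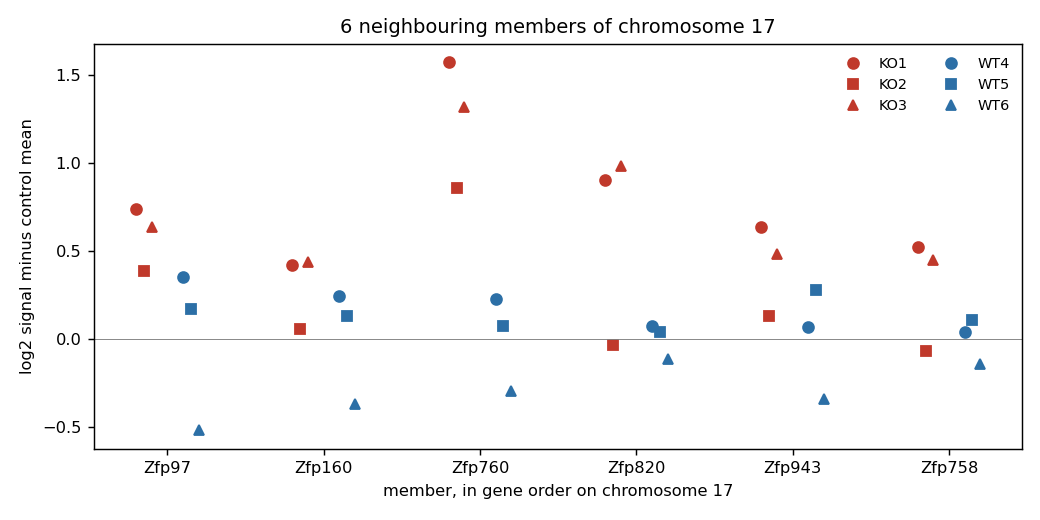
Log2 signal of 6 neighbouring Zfp genes of chromosome 17 on each array, as the distance from the control mean of the gene, with genes in chromosomal order (spacing is not to scale). Red symbols are knockout arrays, blue symbols are control arrays, and a shape is shared by arrays of neighbouring animal numbers. Knockout replicates 1 and 3 lie above the 3 controls for every gene, and knockout replicate 2 does so for Zfp97 and Zfp760.

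On the other chromosomes with at least 5 of the genes, the medians lay between -0.18 and 0.05. Chromosome 7 carried 46 of them, 22 higher, with a median of -0.01 against 0.02 for all its tested genes. Chromosome 13 carried 16, 8 higher, with a median of 0.02, and chromosome 8 carried 13, 7 higher, also at 0.02. On chromosomes 5 and 6 the medians were -0.18 over 10 genes and -0.14 over 11, with 3 and 4 higher. Without knockout replicate 2 they were 0.03 and -0.06. On chromosome 9, 2 of 10 genes were higher, with a median of -0.06. The 5 genes of chromosome 18 had a median of -0.14, which was 0.14 without knockout replicate 2. The medians on chromosomes 11, 2 and 4, with 8, 7 and 6 genes, were 0.05, -0.08 and -0.05, and 0.11, 0.08 and 0.24 without knockout replicate 2.

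**Figure D3:**
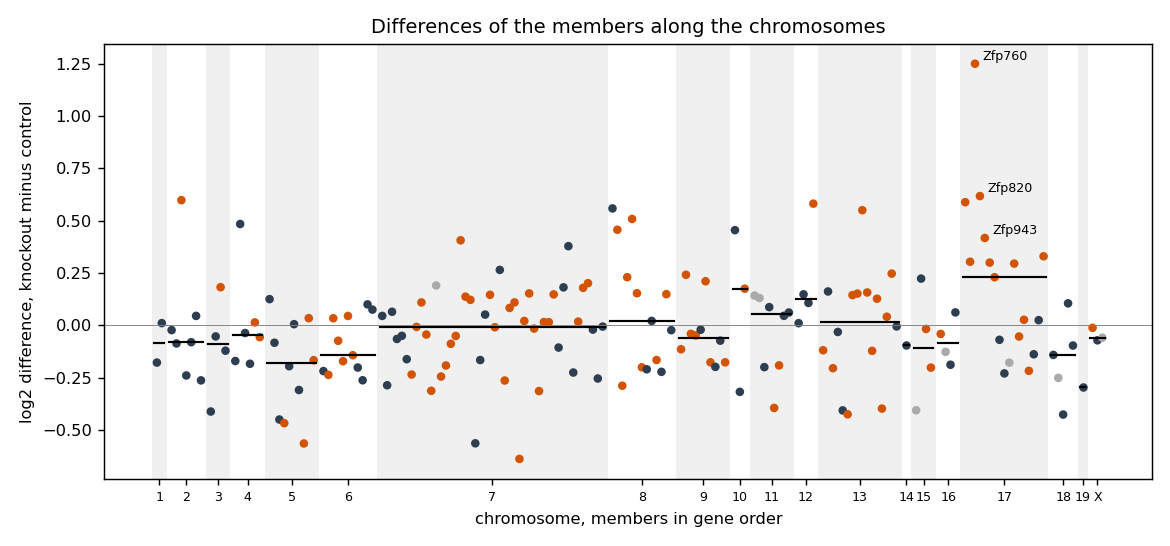
Log2 difference of each of the 175 genes, knockout minus control, in gene order along the chromosomes (spacing is not to scale). Points are coloured by class as in the plot of all differences, with orange for a KRAB box, dark blue for none and grey for not assigned, and a horizontal line gives the median of each chromosome. The median of chromosome 17 is 0.23, and that of chromosome 7, with the most genes, is -0.01.

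When members with at most 10 annotated genes between them were joined, 62 of the 175 genes fell into 13 runs of at least 3, and 113 lay outside. Neighbours within a run did not share 1 direction as a rule. The run from Zfp760 to Zfp943 was the only one of the 13 in which every gene was higher, with a median of 0.62, or 0.94 without knockout replicate 2. In the 8-gene run from Zfp457 to Zfp738 on chromosome 13, 6 were higher, with a median of 0.14. It holds the KRAB genes Zfp429, at 0.55 ± 0.26, and Zfp748, at -0.40 ± 0.24. In the 5-gene run from Zfp930 to Zfp866 on chromosome 8, 4 were higher, with a median of 0.23. The KRAB gene Zfp930 there read 8.69, 8.83 and 8.61 against 8.49, 7.91 and 8.37, so that all knockout arrays lay above all controls, at a difference of 0.46 ± 0.23. Zfp963, in the same run, had a difference of 0.51 ± 0.26, with overlapping groups. On chromosome 7, the 8 genes from Zfp84 to Zfp382 were split evenly, with 4 higher and 4 lower. The 4 genes from Zfp787 to Zfp28 on chromosome 7 and the 3 from Zfp397 to Zfp24 on chromosome 18 were all lower, with medians of -0.11 and -0.25. Without knockout replicate 2 these medians were -0.10 and -0.06, and Zfp24 was higher.

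Zfp940, a KRAB gene of the Zfp84 to Zfp382 run, had the lowest difference of the 175. It read 5.87, 5.37 and 5.62 in the knockout and 6.61, 5.98 and 6.19 in the controls. All knockout arrays lay below all controls, though knockout replicate 1 came within 0.11 of control replicate 5. The log2 difference was -0.64 ± 0.25 (SE, n = 3 per group), with an unadjusted p of 0.03 and an adjusted p of 0.998 in limma. The probe was dim, detected on 5 of the 6 arrays. With no background correction its difference was -0.23 (unadjusted p of 0.119 in limma), and that of Zfp157 was lower, at -0.41. With 1 added to the signal in place of 16, Zfp940 had -0.85. Zfp951, a KRAB gene on chromosome 5, read 6.25, 5.92 and 5.82 against 6.48, 6.43 and 6.49. Its 3 controls were tightly grouped above the knockout arrays, with a difference of -0.47 ± 0.21. Zfp664, on the same chromosome, was also lower without overlap, at -0.31 ± 0.22. On another Zfp664 probe the groups overlapped, at -0.30 ± 0.24. Zfp157, Zfp428 and Zfp518b had differences of -0.56 ± 0.40, -0.56 ± 0.28 and -0.45 ± 0.27. The groups of Zfp157 and Zfp428 overlapped, while those of Zfp518b did not, and without knockout replicate 2 the differences of Zfp157 and Zfp518b were -0.27 and -0.18. With any 1 array left out, Zfp157 ran from -0.84 to -0.18.

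Zfp661, a KRAB gene on chromosome 2, read 5.67, 6.04 and 6.46 in the knockout and 5.36, 5.55 and 5.47 in the controls. The knockout arrays all lay above the controls, with replicate 1 close to them, and the probe was detected on 4 of the 6 arrays. Its log2 difference was 0.60 ± 0.25 (SE, n = 3 per group), with an unadjusted p of 0.04 and an adjusted p of 0.998 in limma. Zfp703, on chromosome 8, encodes a transcriptional corepressor without a KRAB box whose human counterpart is amplified in some breast cancers. It read 8.01, 7.27 and 7.94 against 7.15, 7.22 and 7.18. Knockout replicates 1 and 3 were well above the tightly grouped controls and replicate 2 was just above them, with a difference of 0.56 ± 0.25 and an adjusted p of 0.998 in limma. Zfp365, on chromosome 10, read 6.27, 6.51 and 6.03 against 5.60, 5.999 and 5.85. Its groups did not overlap, by a narrow margin, and the difference was 0.45 ± 0.22. Zfp93, a KRAB gene on chromosome 7, had a difference of 0.41 ± 0.22, with overlapping groups.

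**Figure D4:**
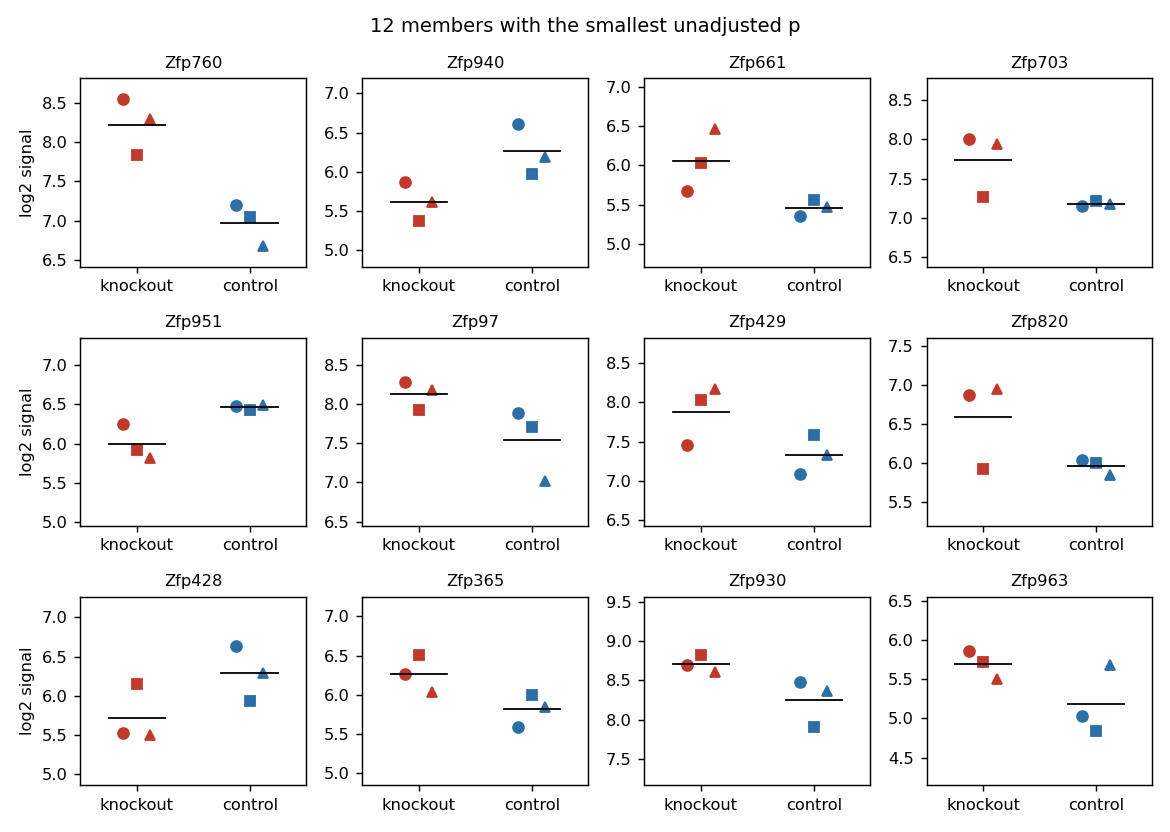
Log2 signal on each array of the 12 Zfp genes with the smallest unadjusted p in limma. Points are single arrays (3 knockout in red and 3 control in blue, with a shared shape for neighbouring animal numbers), horizontal lines are group means, and each panel has its own vertical range. The groups are well apart for Zfp760, between 7.83 and 8.55 in the knockout and between 6.68 and 7.20 in the controls, while those of Zfp820, Zfp429, Zfp428 and Zfp963 overlap.

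Members with well-studied roles had small differences. Zfp36 encodes tristetraprolin, which binds AU-rich elements and speeds the decay of cytokine mRNAs. It read 11.22, 11.45 and 11.80 in the knockout and 11.20, 10.96 and 11.52 in the controls. These groups overlapped, with a log2 difference of 0.26 ± 0.25 (SE, n = 3 per group). Its relative Zfp36l1, which has a like role and is known to restrain the cycling of developing lymphocytes, had a difference of 0.15 ± 0.23. Zfp809 brings KAP1 to the primer binding site of murine leukaemia viruses, where it silences the provirus. It read 6.94, 6.997 and 6.995 against 6.66, 6.74 and 6.89. The knockout arrays lay above all controls by a narrow margin, with a difference of 0.21 ± 0.19 and an adjusted p of 0.998 in limma. Zfp445, a KRAB protein that helps to maintain genomic imprints, had a difference of -0.18 ± 0.27. Zfp335, needed for the maturation of T cells, had -0.08 ± 0.26, and Zfp91, a ubiquitin ligase of the noncanonical NF-kB pathway, had -0.29 ± 0.23. Of 36 genes with a known role that were listed, 18 were among the 175 and 9 were on the array without being detected on any array. Among these 9 were Zfp36l2, a further relative of Zfp36, and Zfp568 and Zfp819, which encode KRAB proteins.

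Trim28 stands on chromosome 7 among zinc finger genes, and 4 of the 175 lay within 30 annotated genes of it. Zfp446, with 3 genes between, read 7.08, 6.24 and 6.70 in the knockout against 6.60, 7.30 and 6.69 in the controls, a log2 difference of -0.19 ± 0.29. Zfp324, with 4 genes between, had -0.24 ± 0.29, and Zfp606, with 28 between, had -0.31 ± 0.34. A further tested probe of Zfp606 went the other way, at 0.13 ± 0.27, and one of Zfp446 had -0.17 ± 0.26. Zfp128, with 11 between, had 0.19 ± 0.28. The groups overlapped for each of the 4, whose median was -0.22, beside -0.19 for the 9 genes tested in that interval, these 4 among them. Their differences were far smaller than that of Trim28 itself.

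The 6 arrays did not contribute evenly. The median log2 signal of the 175 genes was 7.95, 7.54 and 7.95 in knockout replicates 1 to 3 and 7.81, 7.76 and 7.79 in control replicates 4 to 6. Over all tested genes the 6 medians lay between 8.74 and 8.78. Taken gene by gene, each array was set against the median of the other arrays. The median of this distance was 0.17 on knockout replicate 1 and -0.19 on knockout replicate 2, and between -0.05 and 0.06 on the other 4. Knockout replicate 1 was thus high and knockout replicate 2 low for the Zfp genes, by about as much. Knockout replicate 2 was the lowest of the 6 arrays for 73 of the 175 genes, or 41.7%, against 29.1% of all genes. It was lowest for 30 of the 89 genes with a KRAB box, or 33.7%, and for 39 of the 78 without one. Knockout replicate 1 was the highest array for 54 genes, or 30.9%, against 16.2% of all genes. Without knockout replicate 2, 112 of the 175 genes were higher in the knockout, or 64.0%, against 53.2% of all genes, and the median difference was 0.06 against 0.02. With knockout replicate 1 left out instead, 37.1% of the Zfp genes were higher, against 47.2% of all genes. Animal numbers in the header of the deposited table place 1 control next to each knockout mouse. Within these pairs, 66.9%, 36.0% and 51.4% of the Zfp genes were higher in the knockout, against 49.4%, 49.1% and 50.7% of all genes. The pairs thus did not share a direction for the Zfp genes as a group.

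**Figure D5:**
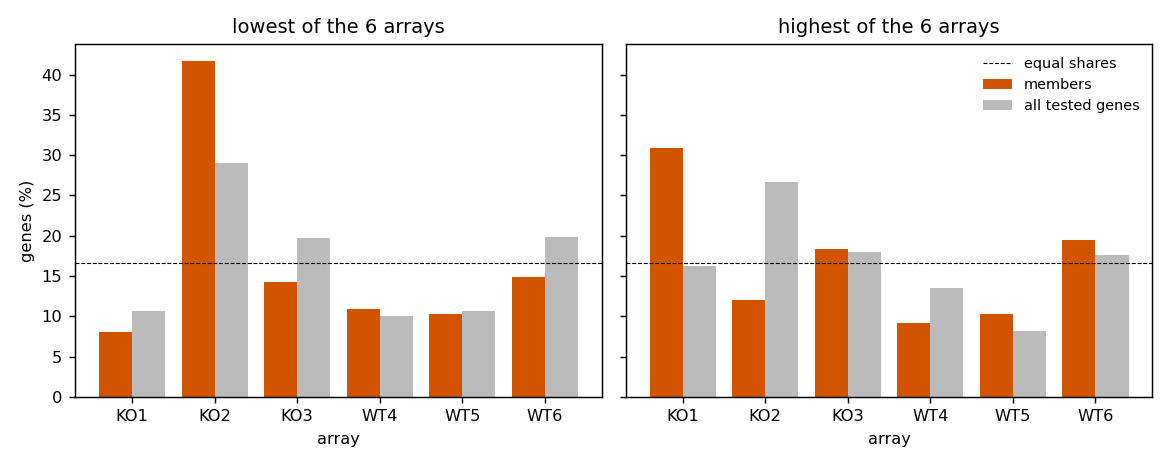
Share of genes, in percent, for which each array held the lowest (left) or the highest (right) of the 6 values, for the 175 Zfp genes and for all 8200 tested genes. KO1 to KO3 are knockout and WT4 to WT6 control replicates, and the dashed line marks equal shares. Knockout replicate 2 was lowest for 41.7% of the Zfp genes and knockout replicate 1 highest for 30.9%.

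In 3 of the 175 genes, or 1.71%, a single array lay at least 1 log2 unit from the nearest of the other 5, against 2.27% of all genes. Each time that array was knockout replicate 2. Zfp24, a SCAN-domain protein needed for myelination, read 6.88, 5.12 and 6.78 in the knockout and 6.55, 6.70 and 6.81 in the controls. Its log2 difference was -0.43 ± 0.44, and 0.14 without knockout replicate 2. Another Zfp24 probe had knockout replicate 2 as its highest array, with a difference of 0.32. Zfp369, also named neurotrophin receptor interacting factor 2, read 10.04, 8.50 and 9.96 against 9.80, 9.82 and 10.16. Zfp704 read 8.77, 7.07 and 8.34 against 8.39, 8.79 and 8.24. The differences of these genes were -0.43 and -0.41, and 0.08 each without knockout replicate 2. The widest gaps below 1 unit were in Zfp119a and Zfp386, both KRAB genes. Zfp119a was high on knockout replicate 2 alone, at 6.80 against 5.53 to 5.82 on the other arrays, and its difference of 0.33 was -0.07 without it. Zfp386 was low on control replicate 4 alone, at 5.57 against 6.52 to 7.13 on the other arrays, with a difference of 0.58 ± 0.36.

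More than 1 tested probe was available for 54 of the 175 genes. In 33 of them all probes differed in the same direction, and in 21 they did not. The median spread between the probes of a gene was 0.16 on the log2 scale. The widest, 0.81, was in Zfp276. Its brightest probe read 9.03, 8.08 and 8.54 in the knockout and 8.56, 8.64 and 8.52 in the controls, a difference of -0.02 ± 0.27. Another of its probes, ILMN_1222031, read 6.54, 6.27 and 5.72 against 7.08, 6.69 and 7.27. On that probe the knockout arrays all lay below the controls, with a difference of -0.84 ± 0.28, an unadjusted p of 0.0151 and an adjusted p of 0.998 in limma. It was the only 1 of the 65 further probes with an unadjusted p under 0.05.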

How the data were processed

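The deposited signal table holds 1 linear intensity per probe and array, not normalized between arrays, with a detection p-value beside it, per the file headers. BeadStudio 3.1.3 is the software named in the submitters' processing notes. The authors' processed value table, of background-subtracted intensity, was an alternative. In R 4.3.3, limma 3.58.1 (neqc) corrected the background from the detection p-values and added 16 to the corrected signal. It then equalized arrays by quantiles and took log2, all from the deposited intensity. lmFit and eBayes compared the genotypes over 14651 probes detected on at least 3 arrays, two-sided, with Benjamini-Hochberg adjustment over all of them. Between 13973 and 15182 probes were detected per array, with mean signals of 340.1 to 678.5, and 3 mice per group limit the precision. The fit was tested on simulated data, drawn independently for each probe. No shift of a whole array was simulated, so that test does not cover such shifts.

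Members and lists were chosen with earlier results of these data known. The KRAB class was to be read from protein sequence, but a list written by hand was used. Gene names and order came from RefSeq GRCm38.p6, which matched all 175 symbols. Named genes were Trim28, the 12 smallest unadjusted p-values, the 5 largest differences each way, the widest single-array gaps, members in runs, at the edge of the detection rule or near Trim28, and genes of known role. Zfp160, Zfp758, Zfp276, Zfp664 and Zfp523 were chosen after their values were seen. Animal numbers in the file header that differ by 2 or less made 3 pairs. Deviations from the group means correlated at 0.13, 0.16 and 0.52 within pairs and between -0.46 and 0.32 otherwise. Promoter windows were aligned with Biopython 1.88.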

Additional observations from a re-analysis of the deposited data

How the results depend on the processing

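No member passed an adjusted p of 0.05 in limma under any of the alternatives run. The count at an unadjusted p under 0.05, 3 members, was 12 with no filter on dim probes (6.86%, all genes 6.13%), 1 with no background correction (0.571%, 3.13%), 1 with a trended and robust prior (0.571%, 3.21%), 6 with array weights (3.43%, 5.18%) and 7 with the replicate block (4.0%, 5.18%). It ran from 1 to 8 when 1 array was left out, with 8, 5 and 1 without knockout replicates 1 to 3 (4.57%, 2.86% and 0.571%, all genes 5.59%, 4.55% and 3.66%). The 15 members without overlap became 22 to 42, since fewer arrays overlap less. They were 38, 42 and 27 without knockout replicates 1 to 3 (21.7%, 24.0% and 15.4%, all genes 22.1%, 20.2% and 16.7%). Without control replicates 4 to 6 they were 22, 24 and 25 (12.6%, 13.7% and 14.3%, all genes 16.7%, 14.8% and 14.1%). The share of members higher in the knockout ran from 37.1%, without knockout replicate 1, to 64.0%, without knockout replicate 2. It was 56.6% with array weights (all genes 51.5%), which gave knockout replicate 2 the lowest weight, 0.36. With 1 array left out, the median of genes without a KRAB box ran from -0.13 to 0.058, that of chromosome 7 from -0.12 to 0.043 and that of chromosome 18 from -0.31 to 0.14. Array weights reversed Zfp128 (-0.11) and Zfp276 (0.13). Leaving out 1 array reversed Zfp335 (-0.33 to 0.076), Zfp24 (-0.74 to 0.14), Zfp369 (-0.70 to 0.076), Zfp704 (-0.77 to 0.082), Zfp119a (-0.069 to 0.56), Zfp446 (-0.40 to 0.027), Zfp276 (-0.26 to 0.21), Zfp606 (-0.68 to 0.0073), Zfp445 (-0.41 to 0.061) and Zfp128 (-0.058 to 0.42). The cause was not tested. Zfp760 stayed between 0.80, with no background correction, and 1.45, with adjusted p of 0.163 to 1.0. Runs counted over protein-coding genes only, an alternative chosen after seeing the data, numbered 15 in place of 13. The block changed no call at the adjusted threshold. Dim probes, near background, carry the least precise differences.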
